A study of Rattus norvegicus with 12 samples.

Results

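The 10 genes described here encode parts of the contractile and energy machinery of fast skeletal muscle fibres. They were taken by name: every probe whose gene name in the scanner files was Acta1, Tnnt3, Tnni2, Tnnc2, Mylpf, Ckm, Myh4, Mybpc2, Actn3 or Atp2a1. This gave 10 probes, 1 per gene, of 45598 rat probes on the array. Through their accessions, 8 of the 10 probes carried the same symbol in RefSeq, and no other probe on the array was assigned to any of these 10 names. The gene listed as Mylpf is named Myl11 there, and further probes under that name were not searched for.

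RNA came from calvarial bone of 10-week-old rats, sampled 24 h after surgery on the skull, and was hybridised to 12 single-colour arrays. In bur rats (4 arrays) a rotating bur, moved at about 0.75 mm/s, cut a defect of 8 by 3 mm. In laser rats (4 arrays) an Er:YAG laser, whose infrared light is absorbed by water, cut the same area in 3 strokes at about 2 mm/s, with 20 pulses per second (20 Hz) of 127 mJ each at the tip. In control rats (4 arrays) the periosteum was stripped and the bone was not cut. All groups, control rats included, had thus been operated on. The labels name the tissue as bone. They leave it unstated if each sample was its own animal, and p-values accordingly describe the spread between the samples, which may be technical.

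A fast fibre shortens when myosin heads on the thick filament pull on actin filaments. Calcium released inside the fibre binds the troponin complex on the thin filament and opens the actin sites, a calcium pump returns the ion to the sarcoplasmic reticulum, and creatine kinase refills the ATP that is spent. Bone cells do not build sarcomeres, whereas muscles of mastication attach to the sides of the skull, so sarcomere transcripts can serve as a measure of muscle left on a calvarial sample. In such bulk RNA, fewer muscle fibres and less RNA per fibre cannot be told apart.

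The members Ckm and Tnnt3 carry much of the results below and Myh4 marks their limit, so the probe letters that read them are shown. Coordinates are those of the rn4 build as the scanner files give them. Exons are not named, since no rn4 gene models were used. In the Ckm probe the capitals mark the TAG stop codon that closes its open reading frame, and the bases after the stop are not shown. The Ckm probe lies on chr1:78772431-78772490, plus strand, the Tnnt3 probe on chr1:202758664-202758723, plus strand, and the Myh4 probe on chr10:53951729-53951788, plus strand.
Ckm probe: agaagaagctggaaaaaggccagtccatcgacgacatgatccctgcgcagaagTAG
Tnnt3 probe: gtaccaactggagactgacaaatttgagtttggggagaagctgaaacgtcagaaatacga
Myh4 probe: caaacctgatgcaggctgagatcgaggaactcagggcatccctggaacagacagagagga

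The promoters of Acta1 and Ckm, the members that were higher in laser bone, are given from 250 bases before to 50 bases after the gene's start, as in RefSeq's GRCr8 assembly. Capitals mark matches, on both strands, to letters that muscle transcription factors are known to bind: the E-box CANNTG of the MyoD family, the CArG box of serum response factor, the MEF2 site, the MCAT element CATTCC of TEAD factors, and the TATA box TATAAA. The Acta1 promoter lies on chr19:68784145-68784444, minus strand, and that of Ckm on chr1:88189211-88189510, plus strand.
Acta1 promoter: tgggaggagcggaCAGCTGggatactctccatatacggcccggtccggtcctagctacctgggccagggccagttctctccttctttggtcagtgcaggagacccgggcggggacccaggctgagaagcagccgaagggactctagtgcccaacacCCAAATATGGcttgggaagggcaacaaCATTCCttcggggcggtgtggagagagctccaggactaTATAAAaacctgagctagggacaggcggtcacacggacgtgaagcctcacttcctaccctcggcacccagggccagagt
Ckm promoter: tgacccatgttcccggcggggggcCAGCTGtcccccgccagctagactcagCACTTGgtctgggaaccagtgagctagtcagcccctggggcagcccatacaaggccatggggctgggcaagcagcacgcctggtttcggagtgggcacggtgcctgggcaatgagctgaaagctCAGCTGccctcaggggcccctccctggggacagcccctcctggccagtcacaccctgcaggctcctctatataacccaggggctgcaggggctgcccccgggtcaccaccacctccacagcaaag
Acta1 held 1 E-box, 1 CArG box that starts 94 bases before the gene's start, 1 MCAT element and 1 TATA box, whereas Ckm held 3 E-boxes and none of the other motifs in this window. Of the 9 members with a promoter in the table, 8 held an E-box, 2 a CArG box, 1 a MEF2 site, 3 an MCAT element and 3 a TATA box. Among all 33469 rat promoters of the same length, 72.1% held an E-box, 1.64% a CArG box, 3.29% a MEF2 site, 14.2% an MCAT element and 14.2% a TATA box. These are letter matches only, and binding was not measured.

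Levels are log2 of the scanner's processed signal after quantile normalization, and a probe was read well above background where the scanner flagged it so. Testing required such a flag on 4 or more of the 12 arrays, which 27196 of the rat probes and 8 of the 10 members had. Before normalization the median processed signal ran from 18.6 to 28.3 on bur arrays, from 55.6 to 81.9 on laser arrays and from 16.5 to 43.2 on control arrays, and no spot was saturated. Bur and control samples shared slide 1, each group in a column of its own, so that column and treatment cannot be told apart between them. The laser samples filled a column of slide 2, so that slide and treatment cannot be told apart in either laser comparison. The control arrays 1 and 4 stood apart in myelin and other neural genes: Mbp, which encodes myelin basic protein, read 13.29 on control 1 and 12.37 on control 4, against 7.87 and 8.14 on control 2 and control 3.

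Detection differed between the arrays as a whole and between the members' probes. Of all rat spots, 57.0 to 59.9% were well above background on bur arrays, 67.5 to 72.0% on laser arrays and 57.2 to 64.4% on control arrays. Control 4 had the highest share of the control arrays. Myh4, the myosin heavy chain of the fastest fibres, and Mybpc2, the fast myosin-binding protein C of the thick filament, were not well above background on any of the 12 arrays, and no difference in either was called when the filter on dim probes was dropped. Acta1, skeletal muscle alpha-actin of the thin filament, was well above background on no bur array, on 4 laser arrays and on 1 control array, so it entered the test through the laser arrays. Ckm, the muscle creatine kinase, was so on 2 bur, 4 laser and 2 control arrays, and Actn3, the fast-fibre alpha-actinin that anchors actin at the Z-disc, on 4 bur, 4 laser and 2 control arrays. The troponins Tnnt3, Tnni2 and Tnnc2, the fast regulatory myosin light chain Mylpf and the fast calcium pump Atp2a1 were well above background on all 12 arrays.

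**Figure D1:**
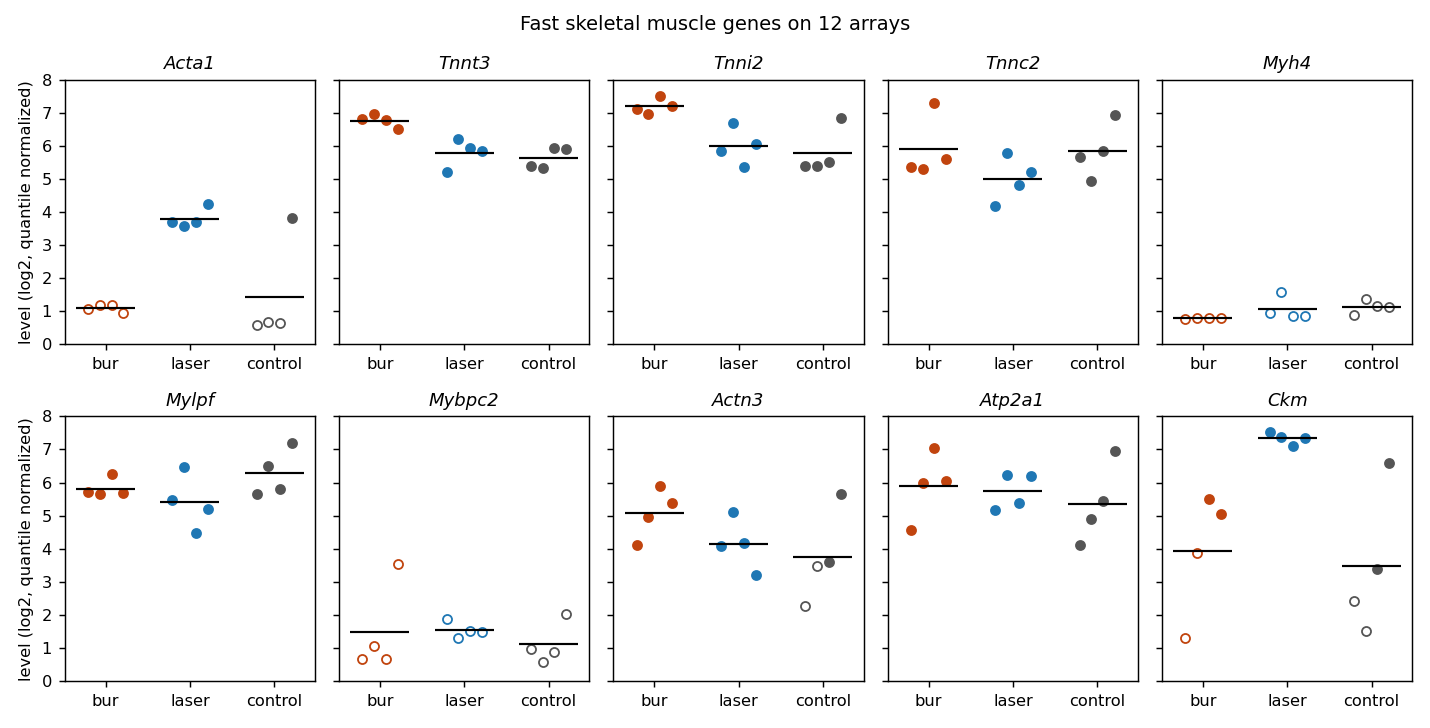
Log2 level (vertical axis, quantile normalized processed signal) of the 10 genes on the 4 bur, 4 laser and 4 control arrays. Points are arrays in order of their replicate number, filled where the probe was well above background and open where it was not, and the line is the group mean. Tnnt3 and Tnni2 lie highest on bur arrays and Ckm on laser arrays, and all points of Myh4 and Mybpc2 are open.

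Signal was also expressed as a multiple of the background limit, the lowest processed signal of any probe well above background on that array. Myh4 read 0.307 to 0.351 times this limit on bur arrays, 0.256 to 0.854 times on laser arrays and 0.299 to 0.378 times on control arrays. Ckm stood furthest above it, at 39.9 to 52.2 times on laser arrays, against 0.361 to 6.03 times on bur arrays and 0.378 to 16.7 times on control arrays. Tnni2, the inhibitory troponin subunit that blocks the actin sites at rest, read 13.0 to 26.1 times the limit on bur arrays, 13.1 to 32.3 times on laser arrays and 4.01 to 19.5 times on control arrays.

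**Figure D2:**
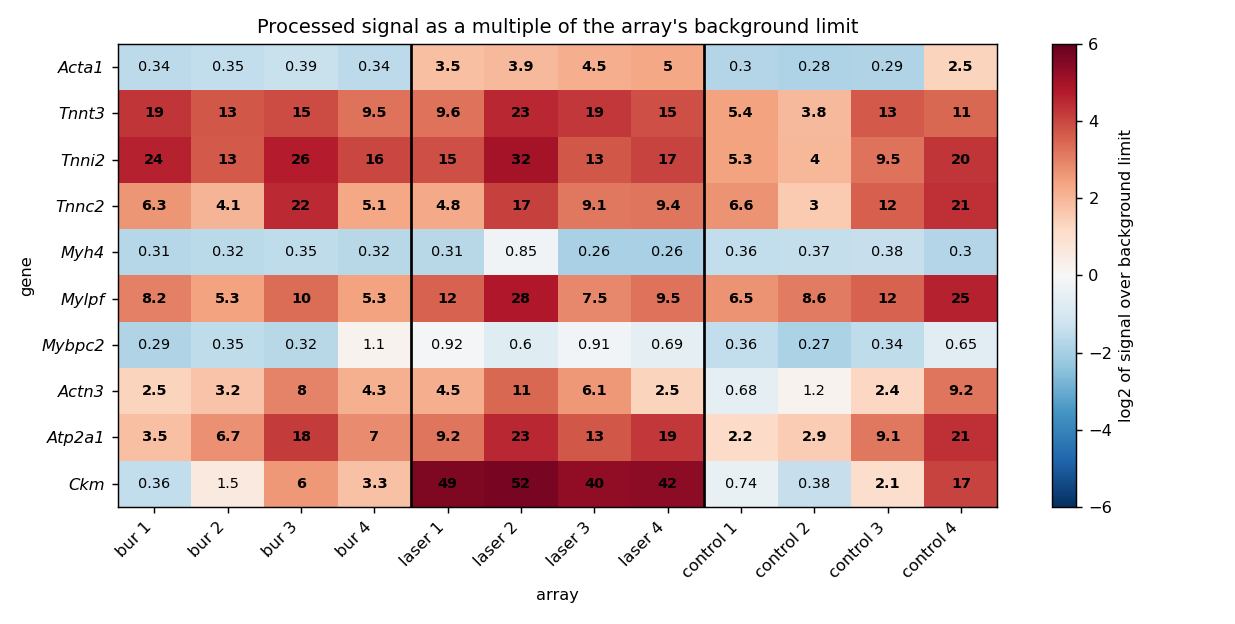
Processed signal of each gene (rows) on each array (columns) as a multiple of that array's background limit. Colour gives the log2 of that multiple, and bold numbers mark a probe well above background. The Myh4 and Mybpc2 rows hold no bold number, and the Ckm row is darkest on the 4 laser arrays.

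The first comparison set bur-drilled bone against uncut bone, within 1 slide. Of the 8 tested members, 2 rose in bur bone, Tnnt3 and Tnni2, and none fell at a limma adjusted p under 0.05, nor at an unadjusted p under 0.05. The call rate was 25% of tested members, against 20.4% of all 27196 probes called in either direction, 12.6% called higher and 7.84% called lower, and without Acta1 it was 2 of 7. The median log2 fold change of the tested members was 0.50, against 0.10 over all probes, and 6 of the 8 values were positive. The values of Tnnt3 and Tnni2 follow, and those of the other 6 stand after them.

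Tnnt3, the subunit that ties troponin to tropomyosin, read 6.81, 6.96, 6.77 and 6.50 log2 on bur arrays 1 to 4, against 5.39, 5.32, 5.95 and 5.91 on control arrays 1 to 4. Every bur array lay above every control array. The rise was 2.17-fold, a log2 fold change of 1.12 ± 0.23 (SE, n = 4 per group, limma adjusted p = 0.00617). Tnni2 read 7.12, 6.95, 7.52 and 7.20 on bur arrays, against 5.38, 5.40, 5.52 and 6.83 on control arrays. The groups again did not overlap, although control 4 lay close below bur 2. The rise was 2.67-fold, a log2 fold change of 1.42 ± 0.35 (SE, limma adjusted p = 0.0154). Groups that did not overlap were found for 2 of 8 tested members and for 20.9% of all probes, 12.7% with bur higher and 8.22% with bur lower. Without control 1 and control 4, the arrays high in neural genes, the log2 fold changes were 1.12 for Tnnt3 and 1.74 for Tnni2, both called. Both calls were lost when arrays were weighted by their spread, at log2 fold changes of 1.03 and 1.28 (limma adjusted p = 0.0564 and 0.0749).

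The remaining 6 tested members did not pass the test in bur bone. Tnnc2, the calcium-binding troponin subunit, averaged 5.89 ± 0.94 log2 in bur bone and 5.85 ± 0.82 in control bone (SD, n = 4 each), a log2 difference of 0.04 with a 95% interval from -1.11 to 1.19. Mylpf averaged 5.82 ± 0.29 and 6.29 ± 0.70, Actn3 5.09 ± 0.75 and 3.74 ± 1.41, and Atp2a1 5.91 ± 1.02 and 5.36 ± 1.19 in bur and control bone, in that order. For Actn3 the log2 difference of 1.35 had an interval from -0.09 to 2.78, and without control 4 it was 1.98 and passed (limma adjusted p = 0.0280). Ckm differed by 0.45, with an interval from -1.87 to 2.78, and Acta1 by -0.34, from -1.64 to 0.97, on levels that were below background on all these arrays but control 4. These intervals are wide enough to hold changes in either direction, so the p-values do not show equal levels.

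Laser ablation was compared with periosteum removal alone. Acta1 and Ckm rose in laser bone, 2 of the 8 tested members, and none fell by limma's adjusted p or at an unadjusted p under 0.05. That is again 25% of the tested members, here against 32.8% of all probes called in either direction, 18.9% called higher and 13.9% called lower. Without Acta1, which passed the filter through the laser arrays, 1 of 7 tested members was called. The median log2 fold change of the tested members was 0.29, against 0.05 over all probes.

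Ckm read 7.54, 7.37, 7.10 and 7.34 log2 on laser arrays 1 to 4, against 2.41, 1.51, 3.39 and 6.58 on control arrays 1 to 4. All laser arrays lay above all control arrays, and control 4 lay far nearer to them than the others did. Before normalization its processed signal was 308 ± 7.01 in laser bone and 32.8 ± 55.1 in control bone (mean ± SD, n = 4 each), on laser arrays whose median signal was higher too. The rise was 14.6-fold, a log2 fold change of 3.87 ± 1.06 (SE, limma adjusted p = 0.0164), with a 95% interval from 2.90-fold to 73.1-fold. Without control 4 the log2 fold change was 4.90. With the 2 control arrays that were not well above background raised to the limit, 11.1-fold was obtained, and with normexp background correction the log2 fold change was 1.41. Groups did not overlap for this member alone of the 8 tested, against 34.7% of all probes, 19.6% with laser higher and 15.1% with laser lower.

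Acta1 read 3.71, 3.57, 3.69 and 4.25 log2 on laser arrays, against 0.58, 0.67, 0.65 and 3.80 on control arrays. Control 4 fell inside the laser range and was the only control array well above background. The log2 fold change was 2.37 ± 0.60 (SE, limma adjusted p = 0.0105). Without control 4 no control array read Acta1 well above background, and laser bone was at least 2.54-fold higher than the background limit of the other control arrays. Raising the dim control arrays to the background limit gave 2.01-fold (limma adjusted p = 0.0371). With normexp background correction the log2 fold change was 0.23 and no longer passed (limma adjusted p = 0.0562), and the authors' deposited table gives 0.51. Without control 1 and control 4, Ckm was called at 4.89 log2, and Acta1 was at least 2.37-fold higher in laser bone.

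The other 6 tested members did not pass in laser bone. Tnnt3 averaged 5.80 ± 0.42 log2 in laser bone and 5.64 ± 0.33 in control bone, and Tnni2 5.98 ± 0.55 and 5.78 ± 0.70 (SD, n = 4 each). The fold of Tnnt3 had a 95% interval from 0.788 to 1.57 and that of Tnni2 from 0.677 to 1.95. Tnnc2 and Mylpf had negative log2 fold changes, -0.86 and -0.88, with intervals from -2.01 to 0.29 and from -1.79 to 0.04. Without laser 2, the laser array with the highest Mylpf, Mylpf passed as lower at -1.23 (limma adjusted p = 0.0353). Actn3 differed by 0.40 and Atp2a1 by 0.38, neither beyond the spread.

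Laser and bur were then compared directly. Acta1 and Ckm were higher in laser bone than in bur bone, Tnnt3 and Tnni2 were lower, and 4 of the 8 tested members did not pass. The called share was 50% of the tested members, against 27.3% of all probes called in either direction, 13.4% called higher and 13.9% called lower, and without Acta1 it was 3 of 7. These 4 members are those called against control, and the comparisons share the bur and the laser arrays. The authors' deposited table makes the same 8 calls over the 3 comparisons, with log2 fold changes of 2.17 for Ckm in laser against control, and 2.06 for Ckm and 0.65 for Acta1 in laser against bur. The median log2 fold change of the tested members was -0.65, against -0.06 over all probes.

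None of the bur arrays detected Acta1 well above background, and they read 1.06, 1.18, 1.19 and 0.94 log2. Against the background limit of the bur arrays, laser bone was at least 2.47-fold higher (measured means 3.80 in laser and 1.09 in bur bone, limma adjusted p = 0.00638). With normexp background correction the log2 fold change was 0.32, also called. Ckm read 1.31, 3.86, 5.51 and 5.04 on bur arrays, all below the laser arrays given above. It was 10.6-fold higher in laser bone, a log2 fold change of 3.41 ± 1.06 (SE, limma adjusted p = 0.0340), and 8.46-fold with the dim bur arrays raised to the limit. That call was lost without bur 1, bur 2, laser 1, laser 2, laser 3 or laser 4, each left out in turn, at log2 fold changes from 2.54 to 3.49. With normexp background correction Ckm remained called at 1.41.

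Tnnt3 read 5.21, 6.20, 5.93 and 5.84 log2 on laser arrays, all below the bur arrays given above. Its log2 fold change was -0.96 ± 0.23 (SE, limma adjusted p = 0.00930). Tnni2 read 5.84, 6.69, 5.37 and 6.04 on laser arrays, also all below the bur arrays, with a log2 fold change of -1.22 ± 0.35 (SE, limma adjusted p = 0.0238). The call of Tnni2 was lost without laser 1 (-1.17), bur 3 (-1.11) or laser 3 (-1.01). Before normalization the mean processed signals ran the other way, at 112 in laser bone (range 60.6 to 142) and 76.6 in bur bone (51.0 to 106) for Tnnt3. For Tnni2 they were 128 in laser bone (93.6 to 191) and 105 in bur bone (74.7 to 134), on laser arrays with the higher median signal given above. Groups did not overlap for 4 of the 8 tested members (3 of 7 without Acta1) and for 34.7% of all probes, 15.5% with laser higher and 19.3% with laser lower. Tnnc2, Mylpf, Actn3 and Atp2a1 had log2 fold changes of -0.90, -0.41, -0.95 and -0.17.

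**Figure D3:**
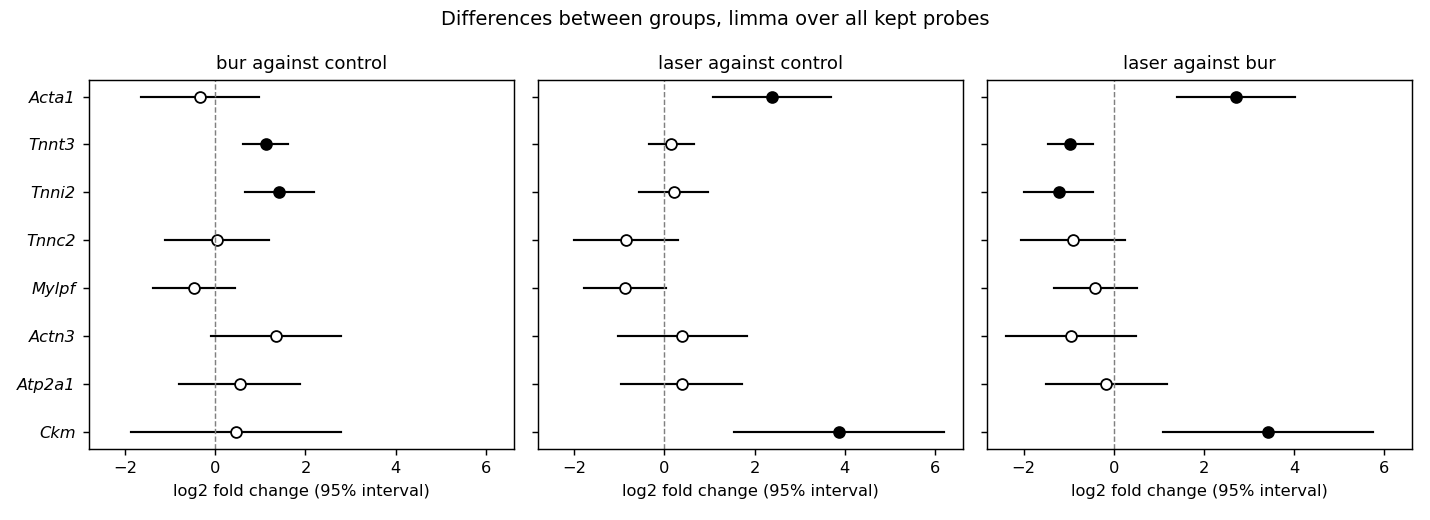
Log2 fold change (horizontal axis) of the 8 tested members in the 3 comparisons, with the 95% interval of the limma fit as a line. Filled points have an adjusted p under 0.05. Tnnt3 and Tnni2 are filled for bur against control, Acta1 and Ckm for laser against control, and these 4 genes, in opposite directions, for laser against bur.

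By group means, the order of levels therefore differed between members. Tnnt3 and Tnni2 were highest in bur bone, with laser and control bone not distinguished. Acta1 and Ckm were highest in laser bone, with bur and control bone not distinguished. For Tnnc2, Mylpf, Actn3 and Atp2a1 no pair of groups was distinguished. The mean log2 level over the 8 members was 5.21 ± 0.59 in bur, 5.40 ± 0.38 in laser and 4.70 ± 1.05 in control bone (SD, n = 4 each), and ran from 3.93 to 6.23 within control bone alone. Its order depended on Acta1 and Ckm. Without these it was 6.11 ± 0.50 in bur, 5.34 ± 0.51 in laser and 5.44 ± 0.80 in control bone, with laser bone lowest.

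Within groups the members followed the array. Control 4 was the highest control array for 7 of the 8 members, bur 3 the highest bur array for 7 and laser 2 the highest laser array for 6. Control 1 was the lowest control array for 5 members, so the control arrays high in neural genes, 1 and 4, lay at opposite ends in the mean of these members. Atp2a1 shows the pattern: it read 4.56, 5.98, 7.03 and 6.05 log2 on bur arrays, 5.16, 6.22, 5.39 and 6.19 on laser arrays, and 4.12, 4.91, 5.45 and 6.96 on control arrays. The ranges overlap wholly, and the spread inside the bur and the control group is larger than any difference between group means. Tnnc2 read 5.36, 5.31, 7.29 and 5.61 on bur arrays, with bur 3 apart from the rest. Over the 28 pairs of members, deviations from the group mean correlated at a median of 0.65 across the 12 arrays, and at 0.38 without control 4. The points of each correlation share the arrays, their depth of signal and their normalization.

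The genes whose level on the 12 arrays was most like the mean of all 10 members were in none of the muscle lists. That mean holds Myh4 and Mybpc2, which no array read well above background. Mybpc2 read 3.54 log2 on bur 4, against 0.65 to 1.05 on the other bur arrays. Bur 4 was the highest array for Tp53rkb, Mrps16 and Fzd2. LOC102548611 averaged only 1.56, 2.31 and 1.43 log2 in bur, laser and control bone. Of 16439 genes outside the list, Tp53rkb (r = 0.87), LOC102548611 (0.83), Mrps16 (0.82), Wdr77 (0.82), Rsph6a (0.81), Ifitm1 (0.81), Ccdc80 (0.80) and Fzd2 (0.79) came first. Mrps16 encodes a protein of the mitochondrial ribosome and Fzd2 a Wnt receptor. The best-ranked genes of the muscle lists were Myoz1, a Z-disc protein, at rank 66, Myh1, the heavy chain of type 2X fibres, at rank 94, and myoglobin, Mb, at rank 142. All these correlations rest on 12 arrays and are given as a description.

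Other genes of striated muscle were taken from lists made for this tissue. The counts of these and the later lists stand against the share of all probes called in either direction. That was 20.4% for bur against control, 32.8% for laser against control and 27.3% for laser against bur. Of 25 other fast-fibre and sarcomere genes on the array, 15 were tested. In bur against control 1 was higher, Klhl41, and 1 lower, Mylk2. In laser against control 1 was higher, Tpm2, and 2 lower, Mylk2 and Tcap. In laser against bur 1 was higher, Tpm2, and 3 lower, Tcap, Klhl41 and Lmod2. Lmod2 was well above background on 1 bur and 3 laser arrays, so its call rests mostly on bur levels that were not. The list's median log2 fold changes were 0.23, -0.11 and 0.17, against 0.10, 0.05 and -0.06 over all probes.

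Klhl41, a sarcomere-assembly protein of the kelch family, was called in the same comparisons and directions as Tnnt3 and Tnni2. It read 5.39, 5.78, 4.95 and 5.20 log2 on bur arrays, 3.89, 4.44, 3.30 and 4.18 on laser arrays, and 2.65, 4.02, 2.94 and 2.92 on control arrays. Bur 3, the highest bur array for Tnni2, was the lowest for Klhl41. It was 4.60-fold higher in bur than in control bone, a log2 fold change of 2.20 ± 0.32 (SE, limma adjusted p = 0.00130), and lower in laser than in bur bone, with a log2 fold change of -1.38 (limma adjusted p = 0.00918). Tpm2, beta-tropomyosin, was called in the same comparisons and directions as Acta1 and Ckm. It averaged 8.16 ± 0.25 in bur, 9.65 ± 0.25 in laser and 7.93 ± 0.15 in control bone (SD, n = 4 each), with log2 fold changes of 1.72 for laser against control and 1.49 for laser against bur (limma adjusted p = 2.34e-05 and 7.93e-05). On control 4, the highest control array for Acta1 and Ckm, Tpm2 read 7.83, below the 8.08 of control 1. Tpm2 is also made outside skeletal muscle, in smooth muscle and other cells. Mylk2, skeletal myosin light chain kinase, had log2 fold changes of -1.61 in bur and -1.44 in laser bone against control. The fast heavy chain Myh2 and the sarcomere proteins Xirp2, Mybpc1, Myom2 and Smpx were well above background on none of the 12 arrays.

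Of the calcium handling genes, 6 of 15 on the array were tested. Jsrp1, a protein of the junction between the sarcoplasmic reticulum and the surface membrane, averaged 5.83 ± 0.40 log2 in bur, 7.19 ± 0.31 in laser and 6.09 ± 0.20 in control bone. It was the only member of that list called, at 2.14-fold for laser against control and 2.57-fold for laser against bur (limma adjusted p = 0.00294 and 0.000932). The list as a whole leaned the other way. Its median log2 fold changes were -0.12 for bur against control, -0.77 for laser against control and -0.64 for laser against bur. Over all probes they were 0.10, 0.05 and -0.06. Unlike the mean of the members, the mean of this list was high on both control 1 and control 4. It was 5.94 and 5.39 there, against 4.87 and 4.35 on control 2 and control 3. The calcium channel subunits Cacna1s and Cacng1, the calcium store protein Casq1 and the pump inhibitor Sln were not well above background on any array.

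Muscle energy genes gave 2 higher and 1 lower of 12 tested in bur against control, 1 and 1 in laser against control, and 0 and 2 in laser against bur. Gys1, muscle glycogen synthase, averaged 10.26 ± 0.41 log2 in bur, 9.05 ± 0.23 in laser and 9.45 ± 0.14 in control bone, and Aldoa, the muscle form of aldolase, 11.94 ± 0.38, 10.91 ± 0.38 and 11.14 ± 0.10. Both rose in bur against control, by log2 fold changes of 0.82 and 0.80 (limma adjusted p = 0.0157 and 0.0252), and were lower in laser than in bur bone (-1.22 and -1.04). Pfkm, muscle phosphofructokinase, was lower in both cut groups than in control bone (-1.19 in bur, -1.24 in laser). Cox6a2, a heart and muscle subunit of cytochrome oxidase, was higher in laser than in control bone by 1.87 log2 (limma adjusted p = 0.0175). Gys1, Aldoa and Pfkm are also expressed outside muscle. Mb, myoglobin, averaged 6.31 ± 0.53, 6.29 ± 0.20 and 6.17 ± 0.41 in bur, laser and control bone, and no difference in it was called.

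Slow-fibre and cardiac contractile genes gave 1 higher of 9 tested in bur against control, 2 higher and 1 lower in laser against control, and 1 and 1 in laser against bur. The list's median log2 fold changes were -0.05, -0.38 and 0.28 in these comparisons. Actc1, cardiac alpha-actin, which is close to Acta1 in sequence, averaged 7.87 ± 0.37 log2 in bur, 8.57 ± 0.18 in laser and 6.84 ± 0.38 in control bone. Its log2 fold changes were 1.03 for bur against control, 1.73 for laser against control and 0.70 for laser against bur (limma adjusted p = 0.00877, 0.000195 and 0.0379). Tnnt2, cardiac troponin T, was 2.83-fold higher in laser than in control bone (limma adjusted p = 0.00468). The other tested troponins of this list, Tnnt1, Tnnc1 and Tnni3, had negative log2 fold changes against control. They were -0.67, -0.80 and -1.76 in bur and -0.44, -0.52 and -1.80 in laser bone, none called. Atp2a2, the calcium pump of slow fibres and heart, which other cells also make, was lower in laser bone, by log2 fold changes of -0.42 against control and -0.84 against bur bone (limma adjusted p = 0.0429 and 0.00146). The slow-fibre troponin Tnni1 and the cardiac heavy chain Myh6 were well above background on none of the 12 arrays. Of developmental and regenerating muscle genes, 8 of 14 on the array were tested. None was called in bur against control, where Cdh15 and Mymk had a limma adjusted p of 0.188 and 0.193, nor at an unadjusted p under 0.05. In laser against control 3 were higher: Myf5, a myogenic regulator, Chrna1, the acetylcholine receptor alpha subunit, and Cdh15, the cadherin of satellite cells, by 1.47, 0.87 and 1.71 log2. Myf5 was also higher in laser than in bur bone (1.28, limma adjusted p = 0.0302). Myod1, Myf6 and Pax7 stayed below that mark on all 12 arrays.

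Markers of other cell types also differed between the groups. Of 6 tested smooth muscle markers, Acta2 and Tagln rose in both cut groups, and none differed between laser and bur. Myh11 and Mylk had negative log2 fold changes against control, -0.73 and -0.26 in bur and -0.90 and -0.27 in laser bone. Those of Smtn and Actg2 were positive in both, and none of these was called. Tagln averaged 7.09 ± 0.17 log2 in bur, 7.35 ± 0.16 in laser and 5.93 ± 0.24 in control bone, and the list's mean ran from 6.52 to 7.51, from 6.88 to 7.60 and from 6.72 to 7.20. The smooth muscle genes Cnn1, Lmod1 and Synpo2 stayed below that mark on all 12 arrays. Of 4 tested tendon markers, 1 rose and 1 fell in bur against control and 2 rose in laser against control. The tendon regulators Scx and Mkx were those in laser bone, by 1.90 and 6.12 log2 (limma adjusted p = 0.00160 and 7.12e-08), and the mean of the tendon list ran from 8.13 to 8.36 in bur, from 9.75 to 10.26 in laser and from 7.08 to 7.75 in control bone. Between laser and bur bone Mkx alone of this list was called, at 6.97 log2, and no bur array read it well above background. Scx, Fmod and Thbs4 differed there by 0.59, -0.53 and -0.09. The marker that fell in bur against control was also Mkx. Of 11 osteoblast and osteocyte markers, 9 were well above background on all 12 arrays, with 3 higher in bur and 5 higher in laser than in control bone. Of 3 tested adipocyte markers 1, Pck1, was lower in both cut groups than in control bone, and of 7 tested neural markers 3 were. Pck1 was well above background on no bur array, 1 laser array and 3 control arrays, so it entered the test mostly through the control arrays. The mean of the neural list was 7.46 and 6.73 on control 1 and control 4, against 4.98 and 4.06 on control 2 and control 3. It ran from 2.98 to 4.29 in bur and from 3.26 to 4.61 in laser bone. Of the 3 neural markers, Gfap and Slc1a2 were well above background on no bur array. The part of these cells in the differences of the muscle genes was not tested.

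The chromosome position of the members was also read. By the coordinates of their probes, 7 of the 10 lie on chromosome 1 and 1 each on chromosomes 3, 10 and 19. The probes of Tnni2 and Tnnt3, the pair called in bur bone, lie 68.5 kb apart. In RefSeq's gene order the protein-coding genes Ifitm10, Ctsd, Syt8, Lsp1 and Prr33 lie inside the span of Tnni2 or between it and Tnnt3. They were taken by that position after the values of the members were seen. Prr33 had no tested probe.

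Ctsd, which encodes the lysosomal protease cathepsin D, and Lsp1, a leukocyte-specific actin-binding protein, were highest in bur bone, as Tnnt3 and Tnni2 were. Lsp1 averaged 13.87 in bur, 12.80 in laser and 13.01 in control bone, so that laser and control bone stood in the opposite order to the troponins, a difference that was not called. Lsp1 read 14.15, 14.10, 13.66 and 13.57 log2 on bur arrays, 12.69, 12.85, 12.64 and 13.02 on laser arrays, and 12.78, 12.59, 13.34 and 13.34 on control arrays. All bur arrays lay above all others. Its log2 fold change was 0.86 for bur against control and -1.07 for laser against bur (limma adjusted p = 0.0153 and 0.00334). Ctsd had 1.58 and -1.11 in these comparisons (limma adjusted p = 0.000429 and 0.000919). Ifitm10 and Syt8 were not highest in bur bone: Ifitm10 was higher in laser than in control bone by 0.72 log2 (limma adjusted p = 0.0346), and Syt8 differed by -1.15 in bur against control, not called. Over the 12 arrays, deviations of Tnnt3 from its group means correlated at 0.67 with those of Lsp1, 0.06 with Ctsd, 0.19 with Ifitm10 and -0.55 with Syt8. Those of Tnni2 correlated at 0.38 with Lsp1, 0.04 with Ctsd, 0.62 with Ifitm10 and -0.27 with Syt8, and the pair of troponins at 0.42.

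**Figure D4:**
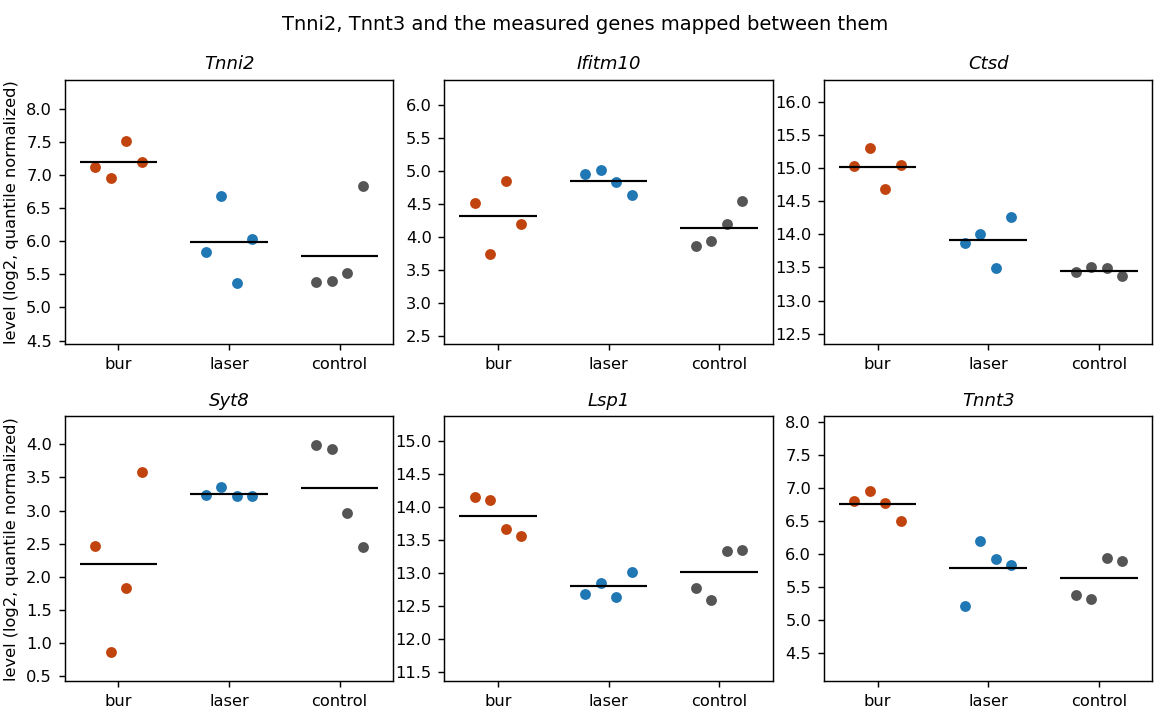
Log2 level (vertical axis, quantile normalized; every panel spans the same number of log2 units) of Tnni2, Tnnt3 and the 4 tested genes that RefSeq places between their outer ends, on the 4 bur, 4 laser and 4 control arrays. Points are arrays and lines are group means. Tnni2, Ctsd, Lsp1 and Tnnt3 have all bur arrays above all laser and control arrays, and Ifitm10 and Syt8 do not.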

How the data were processed

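Agilent scanner files of 12 single-colour arrays, each hybridised with Cy3-labelled RNA from 200 ng, were used. The deposited files give the intensity of each spot. Per the submitters' processing notes the software was Agilent Feature Extraction 11.0.1.1, whose processed signal is background-corrected, per the file headers. The authors' deposited table of log2 values is quantile normalized per its title, and its comparison table gives p-values per the file headers. It was used for its 21080 entries that the comparison table lists (median r with the scanner values across arrays 0.991); the other 3840 (0.234) were not used.

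Control and outlier spots were left out, processed signals were taken to log2 and quantile normalized, spots of a probe were averaged, and 27196 probes well above background on at least 4 of 12 arrays entered 1 limma fit (limma 3.58.1, R 4.3.3; lmFit, contrasts, eBayes) of all 3 groups. Calls were made at an adjusted p under 0.05 (Benjamini-Hochberg, over all probes tested). Where a group has no array above background, a fold is a bound against each array's lowest signal well above background. Values with dim arrays raised to that limit, bounds with control arrays left out and counts without Acta1 were chosen after seeing the data. A 95% interval is that of the fit. The number of arrays limits the precision.

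The 10 members, the other gene lists and the tests were chosen with earlier results of these data known. Named are all members, up to 4 genes of each list by the smallest adjusted p, and the 8 genes most like the members. Genes named outside this rule, such as Mb, Myh1, the undetected list members and the genes near Tnni2, were chosen after their values were seen. No 2 arrays were duplicates (closest pair within a group r = 0.989).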

Additional observations from a re-analysis of the deposited data

Results flagged for a closer look

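In groups of 4 arrays, an array was noted when its gap to the nearest other array was too large a share of the group's whole range, by Dixon's critical value at 95%. Of 23 groups of a member examined, 4 had such an array. Chance gives about 1 in 20 for independent groups, but these share the 12 arrays, so the count cannot be judged against that rate. Control 4 stood apart in Acta1, at 3.80 log2 against at most 0.67 on the other control arrays, and in Tnni2, at 6.83 against at most 5.52. Bur 3 stood apart in Tnnc2, at 7.29 log2 against at most 5.61 on the other bur arrays, and in Mylpf, at 6.25 against at most 5.70. Without control 4, the log2 fold change of Tnni2 in bur against control was 1.77, still called, and no control array read Acta1 well above background, so laser bone was at least 2.54-fold higher. Without bur 3, that of Tnnc2 in bur against control was -0.42, not called.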

How the results depend on the processing

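Of 152 values of the 8 called differences under other settings, 140 kept their direction and their call, 12 kept the direction only and none reversed. Each member has 1 probe, so other filters and other ways to combine probes left its log2 fold change unchanged. So did fitting 2 groups alone and the replicate block, and under all these settings only the call could change. Of 311 values of the 16 uncalled differences, 294 stayed uncalled in the same direction, 2 passed and 15 reversed; the cause was not tested. Member calls for laser against control numbered 1 with normexp correction and 0 with probes well above background on all 12 arrays, a filter that leaves out Acta1, Ckm and Actn3 and gives 2 for laser against bur. With array weights bur against control had 0. Leaving out 1 array gave 2 to 3 calls for bur against control and laser against control, and 2 to 4 for laser against bur, with 2 without laser 1 or laser 3. Under 75th percentile scaling, the log2 fold changes that reversed were Tnnc2 (-0.27) and Ckm (-0.038) in bur against control and Tnnt3 (-0.052) in laser against control. That scaling moved the median of all probes in bur against control from 0.10 to -0.11, and the calls from 3421 higher and 2133 lower to 2208 higher and 3453 lower. For laser against bur it moved them from 3644 and 3782 to 4579 and 3262. Leaving out 1 array gave ranges that crossed 0 in bur against control for Acta1 (-0.62 to 0.45), Tnnc2 (-0.42 to 0.41) and Ckm (-0.20 to 1.49), in laser against control for Tnni2 (-0.035 to 0.55), Actn3 (-0.10 to 1.03) and Atp2a1 (-0.032 to 0.91), and in laser against bur for Atp2a1 (-0.62 to 0.21). Without control 1 and control 4, Acta1 in bur against control was 0.43, a difference between groups wholly below background, as without control 4, from which no direction can be read. Fitting bur and control arrays alone gave 3243 called probes against 5554, and leaving out control 1 and control 4 gave 3273, with both member calls kept in each. With 16447 genes tested in place of probes, 1 probe per gene gave 5663 calls for laser against control and 4267 for laser against bur, and the mean of a gene's probes 5160 and 3966, against 8930 and 7426; fewer features were tested. Whether the titles' numbers pair the samples could not be told, as they are also the arrays' rows on the slides. Same-numbered arrays correlated in their deviations at -0.07 to 0.29, with 7 of 12 over 0.1. With the replicate block, 2, 2 and 4 members were called, as without it, and 5748, 9344 and 7713 probes in all.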
